A study of Mus musculus with 4 samples.

Results

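The tropomyosins (Tpm1, Tpm2, Tpm3 and Tpm4), the sarcomeric actins (Acta1 and Actc1) and the sarcomeric actinins (Actn2 and Actn3) were taken from the deposited soleus table by gene symbol. All 8 of these genes were found among its 23420 genes, and all 8 passed the filter of a mean of at least 10 normalized counts that left 13287 genes for testing. The RNA came from the soleus, a mouse hind limb muscle that holds both slow and fast fibers, of 4 C57BL/6 mice aged 10 weeks. Mice 1-9 and 3-9, labelled MyoDCre+;LoxP-/-, are the muHuR-KO animals, and mice 3-8 and 3-12, labelled MyoDCre-;LoxP-/-, are the controls, so that each group holds 2 libraries from separate mice. The labels write LoxP-/- for every mouse, whereas the study describes Elavl1 alleles with a floxed exon 2. Elavl1 encodes the RNA-binding protein HuR. Cre was driven by MyoD, a promoter that is active from embryonic muscle progenitors onward, and the controls were littermates without Cre, so recombination was directed to the muscle lineage, while the tissue also holds other cell types.

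Actin polymerizes into the thin filaments of the sarcomere, tropomyosin lies along these filaments and, with troponin, governs the access of myosin to actin, and actinin crosslinks the filaments at the Z-disc. Adult skeletal muscle makes mainly skeletal actin (Acta1), while cardiac actin (Actc1) prevails in the heart and in developing skeletal muscle. Tpm3 encodes the tropomyosin of slow fibers, Tpm1 that of fast fibers, and Actn3 is restricted to fast fibers whereas Actn2 is made in all fibers. HuR binds U-rich and AU-rich stretches of RNA.

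The libraries held between 13301715 reads (control 3-12) and 33348893 reads (muHuR-KO 3-9), recovered from the normalized counts. Elavl1 had 1350 normalized counts in control 3-8 and 1190 in control 3-12, against 1210 in muHuR-KO 1-9 and 1205 in muHuR-KO 3-9, so its count over the whole gene did not separate the libraries labelled muHuR-KO from the controls, and exon 2 alone was not measured. All 7 skeletal muscle markers had reads in every library, and their summed level ran from 1898450 to 2395180 normalized counts. limma called 1304 of the 13287 genes against control 3-8 at an adjusted p under 0.05. It called none against both controls or against control 3-12, where 102 and 630 genes had an unadjusted p under 0.05. Of the 1304 genes 1287 were higher in muHuR-KO and 17 lower, while a loess correction for GC content gave 223 higher and 156 lower. The count against control 3-8 fell to 0 without the filter on low counts or without the trend, and to 1 with a correction for exon length. Apart from the GC correction, the other alternatives with a test, edgeR and DESeq2 among them, left the count against control 3-8 of the same order. In this comparison the control arm is 1 library, and it is assumed to vary as the muHuR-KO libraries do, since only their pair gives the residual degree of freedom. Each comparison was therefore made against both controls and against each control singly, and these comparisons share the muHuR-KO libraries. edgeR on the recovered reads called 0 genes against both controls and 1 against control 3-12, and DESeq2 called 0 and 9.

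The promoters of the actins are shown first and their coding sequences compared, because cardiac actin is the gene whose groups did not overlap and because its reads have to be told apart from those of its far more abundant relative. A promoter window of 250 bases before to 50 bases after the annotated start (RefSeq, GRCm38.p6) was at hand for 7 of the 8 genes, with 2 windows for Tpm3. Capitals mark the CArG box, the binding motif of serum response factor, the motif CATTCC, known from binding by TEAD factors, and the motif TATAAA, each searched on both strands. The Acta1 window is chr8:123894726-123895025 and the Actc1 window is chr2:114052826-114053125, both on the minus strand and printed in the direction of transcription.
Acta1: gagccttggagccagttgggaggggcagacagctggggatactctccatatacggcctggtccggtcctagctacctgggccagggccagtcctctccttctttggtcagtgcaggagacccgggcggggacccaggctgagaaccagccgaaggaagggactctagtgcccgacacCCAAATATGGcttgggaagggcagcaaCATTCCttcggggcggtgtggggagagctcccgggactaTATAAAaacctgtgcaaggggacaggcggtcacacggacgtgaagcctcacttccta
Actc1: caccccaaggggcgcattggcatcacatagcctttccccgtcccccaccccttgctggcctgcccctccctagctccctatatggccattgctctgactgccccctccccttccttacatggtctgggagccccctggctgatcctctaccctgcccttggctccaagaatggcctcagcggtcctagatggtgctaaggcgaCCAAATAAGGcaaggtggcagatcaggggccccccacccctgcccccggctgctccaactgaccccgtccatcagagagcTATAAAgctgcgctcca

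Both actin windows held 1 CArG box and 1 TATAAA, and the CArG box began 73 bases before the annotated start of Acta1 and 47 bases before that of Actc1. In Actc1 the TATAAA lay 33 bases after the annotated start, whereas in Acta1 it lay 7 bases before it. The GENCODE M21 gene Actc1 reaches further upstream, to 114053548, so the whole Actc1 window lies within that gene. The GENCODE M21 gene Acta1 instead starts at 123894751, downstream of the RefSeq start and within the Acta1 window. The distances in both windows, and the comparison between the actins, therefore hold for the RefSeq starts alone. CATTCC was found in the Acta1 window (46 bases before the start) and, on the other strand, in the Tpm1 window. Of all 32851 promoter windows in the RefSeq table, 1.63% held a CArG box, 14.7% CATTCC and 13.6% TATAAA, and no tropomyosin window and not the Actn2 window held a CArG box or TATAAA in these letters. The E-box, CANNTG, was found in all 8 windows of these genes and in 72.3% of all windows. These matches describe letters in the windows and not bound sites.

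The coding sequences of Acta1 and Actc1 are both 1131 bases long without the stop codon (GENCODE M21), and 86.3% of the bases are identical. The alike stretches matter because a read of 100 bases from one gene can be assigned to the other only where they differ by little. In each of the 1032 windows of 100 bases the genes differed by at least 4 bases, with a median of 14 and a maximum of 22, and the longest identical run was 29 bases.

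No stretch of 100 bases of the Acta1, Actc1, Actn2, Actn3, Tpm1 or Tpm2 transcript occurred in a transcript of another gene. In contrast, 45.7% of the 100-base stretches of the Tpm3 transcript were found unchanged in Tpm3-rs7, a near-identical copy, and 9.36% of those of Tpm4 were found in the processed pseudogene Gm7809 or in the antisense gene Gm26586. Tpm3 and Tpm4 counts are therefore uncertain to the extent that the authors' counting discarded or divided such reads. Gm26586 overlaps 134 of the 2203 exonic bases of Tpm4 on the opposite strand, and the strand setting of the counting is not given in the sources used here. Within the families, Actn2 and Actn3 were identical at 75.6% of aligned coding bases, and pairs of tropomyosins at 75.1% (Tpm2 and Tpm3) to 81.7% (Tpm1 and Tpm4).

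These genes took up a large part of the libraries. Together they held 9.80% of the reads of control 3-8 and 6.34% of control 3-12, against 7.45% of muHuR-KO 1-9 and 7.40% of muHuR-KO 3-9. By mean normalized count Acta1 ranked 1 in the table, Tpm2 4, Actn2 11, Tpm1 13, Tpm3 16, Actn3 534, Tpm4 1658 and Actc1 4669. In RPKM, reads per kilobase of annotated exon scaled to the library's total, Acta1 ran from 16958 to 31718, Tpm2 from 4953 to 7587 and Actn2 from 1867 to 2911, with no overlap between these neighbours. Tpm1 (986 to 1251) and Tpm3 (856 to 1268) overlapped and changed places between libraries. Actn3 (43.0 to 105) and Tpm4 (34.6 to 51.9) also overlapped, and Actc1 was lowest at 11.9 to 21.5. With the length of the transcript with the longest coding sequence in place of the union of exons, Tpm1 came before Actn2 in all 4 libraries, so that order rests on the length chosen.

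**Figure D1:**
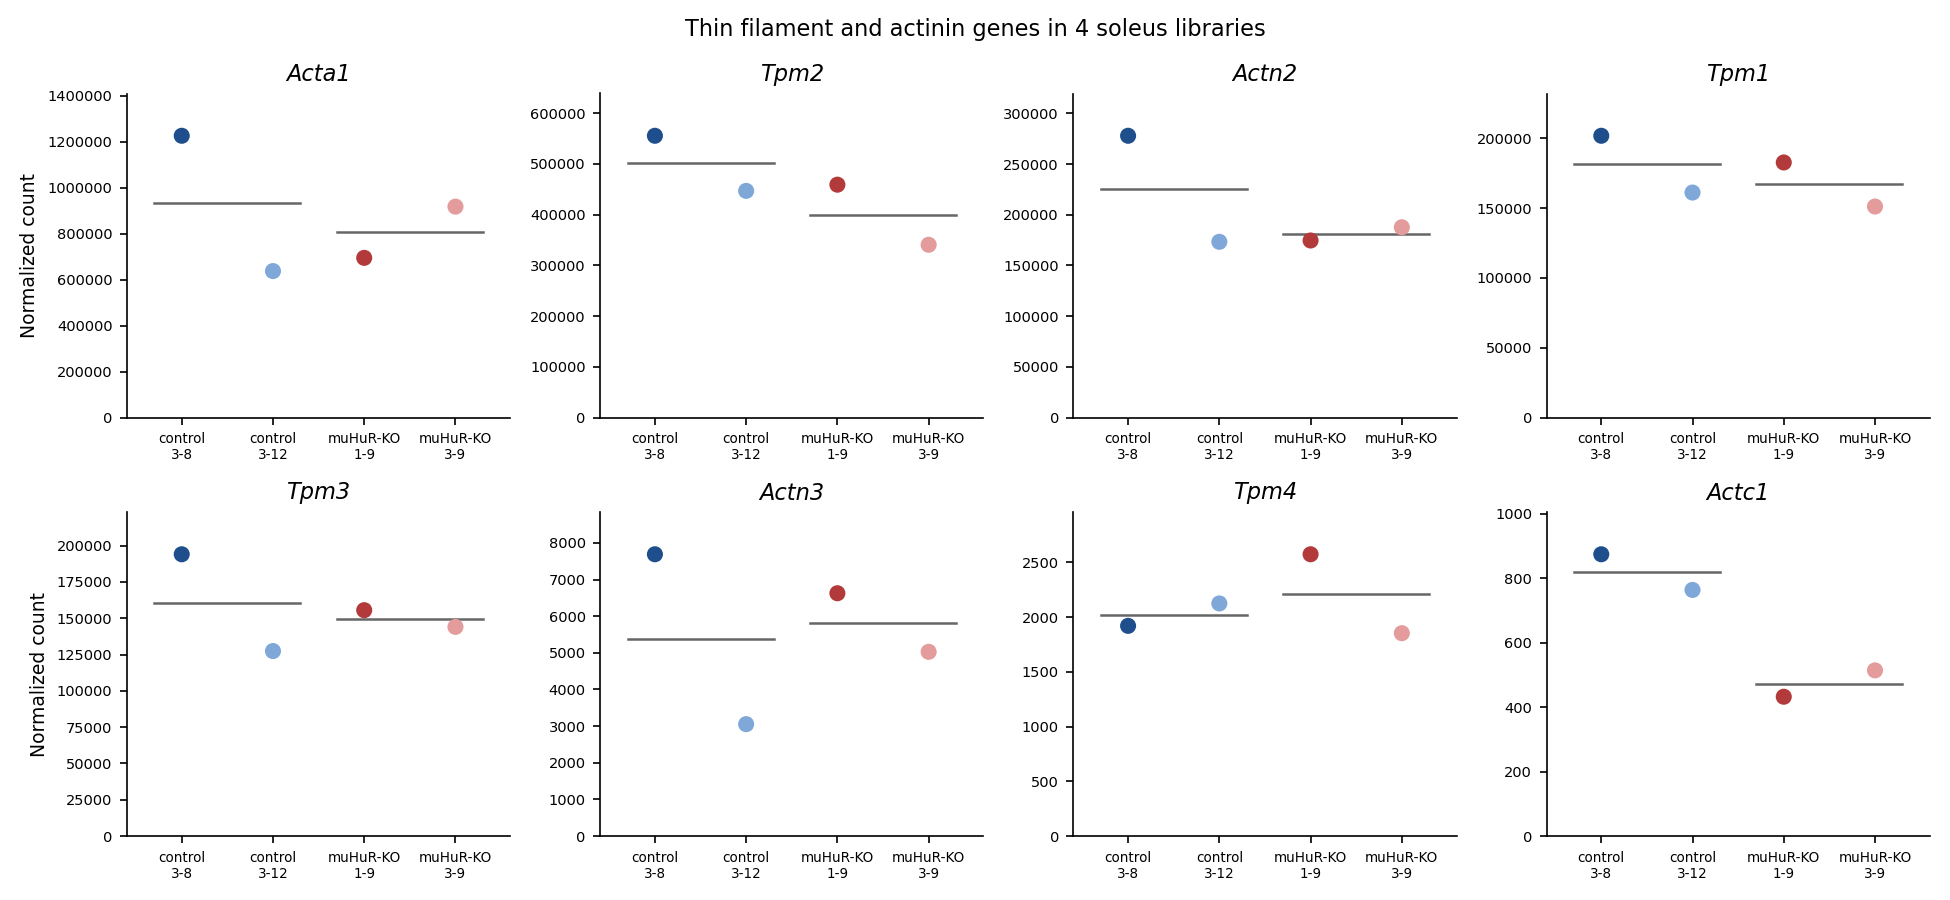
Normalized counts (vertical axes, starting at 0, one scale per gene) of the 8 genes in the 4 soleus libraries (horizontal axes), where each point is a library and each grey line the mean of the 2 libraries of a group. Control 3-8 is highest for 7 genes, and Actc1 is the gene with both muHuR-KO points (432 and 514) below both control points (763 and 874).

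Cardiac actin was lower in both muHuR-KO libraries than in both controls. Actc1 (ENSMUSG00000068614.7, chromosome 2 from 114047282 to 114053548, minus strand) had 874 normalized counts in control 3-8 and 763 in control 3-12, against 432 in muHuR-KO 1-9 and 514 in muHuR-KO 3-9. The means were 473 ± 57.8 (SD, n = 2) in muHuR-KO and 819 ± 78.2 (SD, n = 2) in control soleus. The log2 fold change was -0.79 against both controls (standard error 0.27), -0.89 against control 3-8 (standard error 0.24) and -0.69 against control 3-12 (standard error 0.24), on the scale of log2 of the normalized count plus 1. In limma with Benjamini-Hochberg adjustment over all 13287 genes, the difference passed the threshold against control 3-8 (adjusted p = 0.0440) and did not against both controls (adjusted p = 0.9999, unadjusted p = 0.0194) or against control 3-12 (adjusted p = 0.891, unadjusted p = 0.0155). The call against control 3-8 was lost in 6 of 12 alternatives with a test, with adjusted p-values between 0.0405 and 0.280 over these 12 alternatives, and the direction was the same in all of them. Leaving control 3-12 out of the fit against both controls leaves this same contrast with control 3-8 alone (-0.89, adjusted p = 0.0465 from limma), and without any other library that fit did not pass. The call therefore rests on 1 control library.

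Actc1 was thus 1 of 8 genes called against control 3-8, where limma called 9.81% of all tested genes and called 0.128% as lower in muHuR-KO. Against both controls and against control 3-12 limma called 0 of these 8 genes and 0% of all tested genes. At an unadjusted p under 0.05 it listed 1 of the 8, Actc1, against both controls, where 0.768% of all tested genes passed, and 2 of the 8, Actc1 and Actn3, against control 3-12, where 4.74% passed. Actc1 was also the 1 gene of the 8 with both muHuR-KO libraries below both controls, beside 13% of all tested genes. After a loess correction for exon length Tpm2 lay below both controls in both libraries as well. A share of 1 in 8 is close to that background, so the separation of Actc1 does not set these genes apart from the rest of the table. The count rests on 415 to 895 reads a library.

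Acta1 did not share this pattern. Skeletal actin (ENSMUSG00000031972.5, chromosome 8 from 123891769 to 123894751, minus strand) had 1225862 normalized counts in control 3-8 and 637324 in control 3-12, against 694803 in muHuR-KO 1-9 and 917649 in muHuR-KO 3-9. The controls were the highest and the lowest libraries, with 1.92 times as much in control 3-8 as in control 3-12, and both muHuR-KO libraries lay between them. Its log2 fold change was -0.15 against both controls (standard error 0.44), -0.62 against control 3-8 (standard error 0.48) and 0.33 against control 3-12 (standard error 0.48), with adjusted p-values of 0.9999, 0.464 and 0.9998 from limma.

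The balance of the actins was compared within each library, where the size factors cancel. Actc1 had 7.13 reads per 10000 reads of Acta1 in control 3-8 and 11.98 in control 3-12, against 6.22 in muHuR-KO 1-9 and 5.60 in muHuR-KO 3-9. Both muHuR-KO libraries were below both controls, although control 3-8 lay nearer to them than to control 3-12. As a share of the reads of both actins, the Wilson 95% intervals were 6.67 to 7.61 per 10000 in control 3-8 and 5.73 to 6.74 in muHuR-KO 1-9, which overlap, and 10.9 to 13.2 in control 3-12 and 5.20 to 6.02 in muHuR-KO 3-9. Such intervals cover counting error only, because reads without molecular identifiers are not independent molecules. An exact permutation test of the ratio gave p = 0.333 (two-sided), the smallest p that 2 libraries against 2 allow.

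Cardiac and developing muscle are the known sources of Actc1, and their other markers were set beside it. Of the cardiac chamber markers Myl7 had no read in any library, Nppa and Nppb had means under 10 normalized counts, and the summed level of the list, nearly all of it Myh6, was 788 and 697 in the controls and 756 and 615 in muHuR-KO. The markers of developing or regenerating fibers, which include embryonic and neonatal myosin (Myh3 and Myh8), summed to 3738 and 2377 in the controls and to 3404 and 3501 in muHuR-KO, and 0 of 5 were called in any of the comparisons. Satellite cell markers summed to 326 and 397 in the controls and to 384 and 325 in muHuR-KO, and smooth muscle markers to 9106 and 7770 against 8489 and 7295. In each of these sums the groups overlapped, and the part of such cells in the level of Actc1 was not tested. Myh8, the neonatal myosin, was higher in both muHuR-KO libraries than in both controls. It had 313 normalized counts in control 3-8 and 302 in control 3-12, against 430 in muHuR-KO 1-9 and 530 in muHuR-KO 3-9. Its log2 fold change was 0.63 against both controls (adjusted p = 0.9999 from limma, unadjusted p = 0.0520), 0.61 against control 3-8 and 0.66 against control 3-12. Of the 5 markers of developing or regenerating fibers, 4 had a positive log2 fold change against both controls, 1 (Myh8) against control 3-8 and 5 against control 3-12. In bulk tissue fewer cells of a type and less RNA per cell cannot be told apart.

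**Figure D2:**
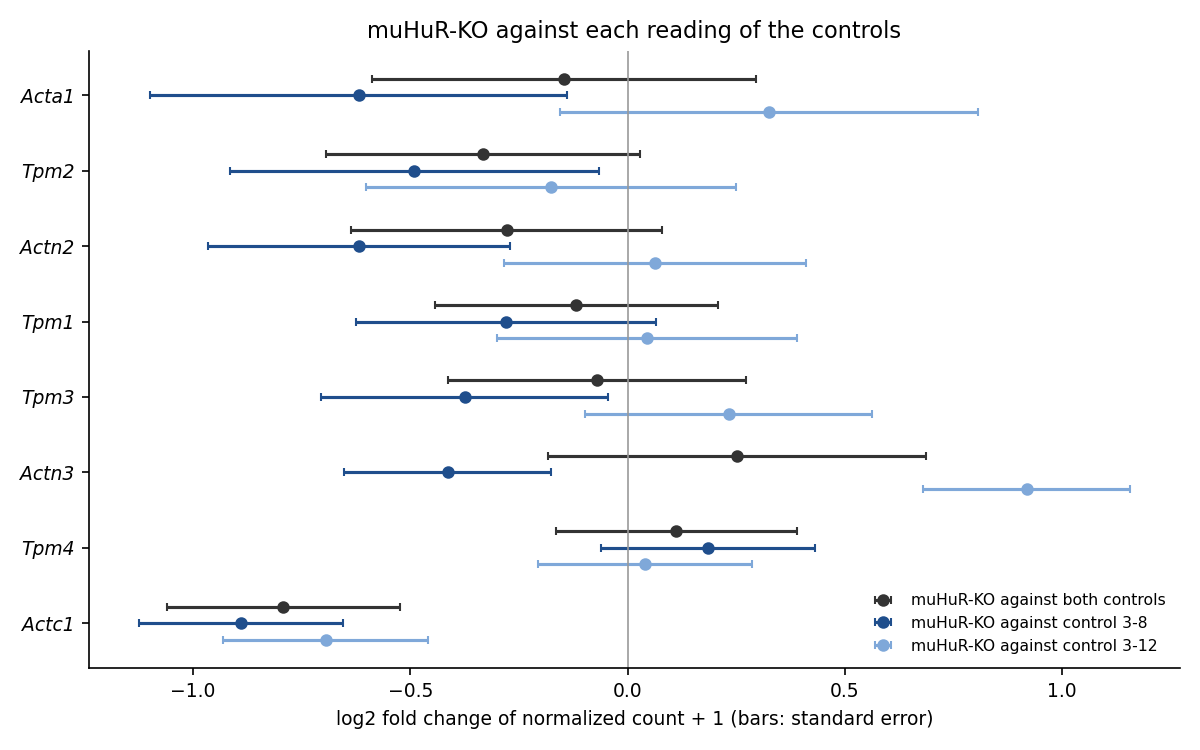
log2 fold change of the normalized count plus 1 (horizontal axis) of the 8 genes in muHuR-KO soleus against both controls, control 3-8 and control 3-12, where points are limma estimates and bars are standard errors. Actc1 (-0.79, -0.89 and -0.69) and Tpm2 (-0.33, -0.49 and -0.18) lie below 0 in all 3 comparisons. Acta1, Actn2, Tpm1, Tpm3 and Actn3 lie below 0 against control 3-8 and above 0 against control 3-12.

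None of the tropomyosins was called in any comparison. Tpm2, the beta tropomyosin of striated muscle (ENSMUSG00000028464.16, chromosome 4 from 43514711 to 43523765, minus strand), was the most abundant of them. It had 555340 normalized counts in control 3-8 and 446729 in control 3-12, against 458956 in muHuR-KO 1-9 and 340554 in muHuR-KO 3-9. muHuR-KO 3-9 was the lowest library, while muHuR-KO 1-9 lay between the controls. The log2 fold change of Tpm2 was -0.33 against both controls (standard error 0.36), -0.49 against control 3-8 (standard error 0.43) and -0.18 against control 3-12 (standard error 0.43), with adjusted p-values of 0.9999, 0.510 and 0.9998 from limma.

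Tpm1, the alpha tropomyosin (ENSMUSG00000032366.15, chromosome 9 from 67022590 to 67049406, minus strand), had 201754 normalized counts in control 3-8 and 161103 in control 3-12, against 182642 in muHuR-KO 1-9 and 151096 in muHuR-KO 3-9. muHuR-KO 1-9 lay between the controls and muHuR-KO 3-9 below both, so the groups overlapped. Its log2 fold change was -0.12 against both controls (standard error 0.33), -0.28 against control 3-8 (standard error 0.35) and 0.04 against control 3-12 (standard error 0.35), with adjusted p-values of 0.9999, 0.651 and 0.9998 from limma.

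Slow tropomyosin was likewise spread mainly by the controls. Tpm3 (ENSMUSG00000027940.18, chromosome 3 from 90072649 to 90100902, plus strand) had 194075 normalized counts in control 3-8 and 127423 in control 3-12, against 155570 in muHuR-KO 1-9 and 144079 in muHuR-KO 3-9. Both muHuR-KO libraries lay between the controls, which differed 1.52 times. The log2 fold change of Tpm3 was -0.07 against both controls (standard error 0.34), -0.37 against control 3-8 (standard error 0.33) and 0.23 against control 3-12 (standard error 0.33), with adjusted p-values of 0.9999, 0.516 and 0.9998 from limma. The direction against both controls turned with CPM in place of size factors (0.034).

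Tpm4, a tropomyosin mainly of the cytoskeleton of non-muscle cells (ENSMUSG00000031799.9, chromosome 8 from 72134975 to 72153142, plus strand), was the least abundant of the family. It had 1920 normalized counts in control 3-8 and 2125 in control 3-12, against 2574 in muHuR-KO 1-9 and 1853 in muHuR-KO 3-9. Here the muHuR-KO libraries were the highest and the lowest, and control 3-8 was not the highest library. The log2 fold change of Tpm4 was 0.11 against both controls (standard error 0.28), 0.19 against control 3-8 (standard error 0.25) and 0.04 against control 3-12 (standard error 0.25), with adjusted p-values of 0.9999, 0.676 and 0.9998 from limma. Fibroblast markers summed to 28905 and 32676 normalized counts in the controls and to 52089 and 31665 in muHuR-KO, and thus were also highest in muHuR-KO 1-9. Endothelial (16120), tendon (6578) and macrophage (806) sums were highest in that library as well, and the endothelial sum was lowest in muHuR-KO 3-9 (11247). Sums of smooth muscle, satellite cell, adipocyte and Schwann cell markers were not highest in muHuR-KO 1-9. The part of these cell types in the level of Tpm4 was not tested.

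The division of the tropomyosin reads was compared within each library. Tpm3 took 20.4% of the tropomyosin reads in control 3-8 and 17.3% in control 3-12, against 19.5% in muHuR-KO 1-9 and 22.6% in muHuR-KO 3-9. The groups overlapped, and the difference of 2.20 percentage points between the group means gave p = 0.667 in an exact permutation test (two-sided). Tpm1 took 21.2% and 21.8% in the controls and 22.8% and 23.7% in muHuR-KO, and Tpm2 took 58.3% and 60.6% in the controls and 57.4% and 53.4% in muHuR-KO. The share of Tpm1 was higher and that of Tpm2 lower in both muHuR-KO libraries than in both controls, each with p = 0.333 in the exact permutation test, the smallest this design can give. The Tpm4 share also did not overlap (0.201% and 0.288% in the controls, 0.322% and 0.291% in muHuR-KO), although control 3-12 and muHuR-KO 3-9 differed by less than their counting intervals. No Wilson 95% interval of these shares was wider than 0.151 percentage points to either side. Shares of a whole are not independent of each other, and after adjustment over the 8 ratios computed all exact permutation p-values were 0.667.

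**Figure D3:**
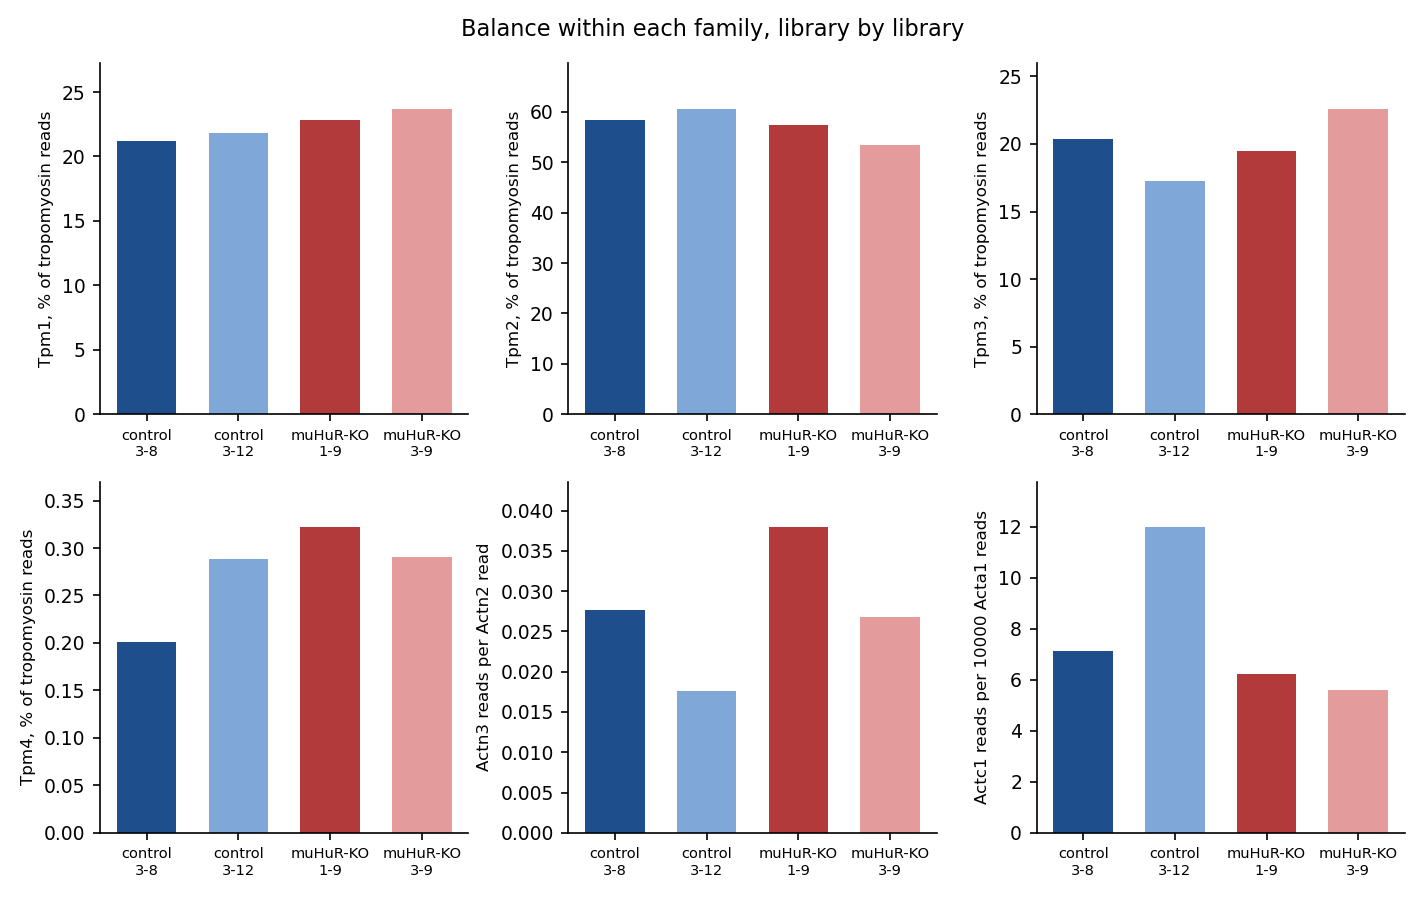
Share of tropomyosin reads taken by each tropomyosin (in percent), reads of Actn3 per read of Actn2, and reads of Actc1 per 10000 reads of Acta1 (vertical axes, starting at 0), where each bar is a single library. Actc1 per 10000 Acta1 reads is 6.22 and 5.60 in the muHuR-KO libraries and 7.13 and 11.98 in the controls, while the Tpm3 share and the Actn3 ratio overlap between the groups.

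Neither actinin was called. Actn2, the actinin of all fibers (ENSMUSG00000052374.16, chromosome 13 from 12269426 to 12340760, minus strand), had 277947 normalized counts in control 3-8 and 173362 in control 3-12, against 174653 in muHuR-KO 1-9 and 187694 in muHuR-KO 3-9. Control 3-8 was high and the other libraries were close together. The log2 fold change of Actn2 was -0.28 against both controls (standard error 0.36), -0.62 against control 3-8 (standard error 0.35) and 0.06 against control 3-12 (standard error 0.35), with adjusted p-values of 0.9999, 0.325 and 0.9998 from limma.

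Actn3, the actinin of fast fibers (ENSMUSG00000006457.4, chromosome 19 from 4861216 to 4877909, minus strand), had 7689 normalized counts in control 3-8 and 3053 in control 3-12, against 6626 in muHuR-KO 1-9 and 5027 in muHuR-KO 3-9. Of the 8 genes it had the widest gap between the controls, 1.33 on the log2 scale or 2.52 times, and both muHuR-KO libraries lay between them. The log2 fold change of Actn3 was 0.25 against both controls (standard error 0.43), -0.41 against control 3-8 (standard error 0.24) and 0.92 against control 3-12 (standard error 0.24), with adjusted p-values of 0.9999, 0.336 and 0.653 from limma. The unadjusted p against control 3-12 was 0.00363, and edgeR, DESeq2 and the other alternatives with a test gave adjusted p-values of 0.371 to 0.978. Per read of Actn2 there were 0.0277 reads of Actn3 in control 3-8 and 0.0176 in control 3-12, against 0.0379 in muHuR-KO 1-9 and 0.0268 in muHuR-KO 3-9, which overlapped between groups (p = 0.667, two-sided exact permutation test).

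The controls lay further apart than the muHuR-KO libraries in 5 of the 8 genes, the exceptions being Tpm2, Tpm4 and Actc1. The log2 gap between the controls ran from 0.15 (Tpm4) to 1.33 (Actn3), and that between the muHuR-KO libraries from 0.10 (Actn2) to 0.47 (Tpm4). The difference between the group means exceeded the gap between the controls in 2 genes, Actc1 and Tpm2, and for Tpm2 it was smaller than the gap between the muHuR-KO libraries (0.33 and 0.43). Control 3-8 was the highest library in 7 of the 8 genes, beside 37.5% of all tested genes. The median log2 fold change of the 8 genes was -0.13 against both controls, -0.45 against control 3-8 and 0.05 against control 3-12, where the medians of all tested genes were -0.01, -0.04 and -0.03. For Acta1, Actn2, Actn3, Tpm1 and Tpm3 the sign of the difference turned between the comparisons with control 3-8 and with control 3-12.

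Fiber type markers were set beside the slow and fast members. The 9 slow fiber markers summed to 1752674 normalized counts in control 3-8 and 1110547 in control 3-12, against 1091785 in muHuR-KO 1-9 and 1223041 in muHuR-KO 3-9, so they were highest in control 3-8. Tpm3 was highest there too, but so were the fast members Tpm1 and Actn3 and 37.5% of all tested genes. Without a further correction limma called none of the 9 in any comparison. Their median log2 fold change was -0.28 against both controls, -0.59 against control 3-8 and 0.14 against control 3-12. After the loess correction for GC content Myoz2, 1 of the 9, was called as lower against control 3-8 (log2 fold change -1.44). With that correction more genes of the whole table were called as lower than without it. The 11 fast fiber markers summed to 1414848 and 1644115 in the controls and to 1546493 and 1355780 in muHuR-KO. Parvalbumin (Pvalb), a calcium buffer of the fastest fibers, had 9185 normalized counts in control 3-8 and 3556 in control 3-12, against 10633 in muHuR-KO 1-9 and 7029 in muHuR-KO 3-9. It was lowest in control 3-12, as Actn3 was, whereas the sum of the fast list was highest there. Myh1, the myosin of IIX fibers, had 54545 normalized counts in control 3-8 and 229802 in control 3-12, against 152186 in muHuR-KO 1-9 and 158075 in muHuR-KO 3-9. It was the 1 gene of the 11 called against control 3-8 (log2 fold change 1.51, adjusted p = 0.0176 from limma), and both muHuR-KO libraries lay between the controls (-0.57 against control 3-12, adjusted p = 0.9998 from limma). A count of 1 of 11 lies near the share of all tested genes called as higher against control 3-8. Of the 11 genes 5 had a positive log2 fold change against control 3-12. The part of fiber composition in the levels of Tpm3 and Actn3 was not tested.

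Other genes of the thin filament and the Z-disc were mostly not called. Of 20 genes for the length and turnover of the thin filament, 3 were called as higher against control 3-8 and none as lower, beside 9.69% of all tested genes called as higher and 0.128% as lower. These were Neb, the giant protein nebulin along the filament (log2 fold change 1.501, adjusted p = 0.0341 from limma), the related Nebl (2.49, adjusted p = 0.0241 from limma) and Xirp2, an actin-binding protein of muscle (1.27, adjusted p = 0.0399 from limma). Neb had 99996 normalized counts in control 3-8 and 403816 in control 3-12, against 249537 in muHuR-KO 1-9 and 321135 in muHuR-KO 3-9, so control 3-12 was higher than either muHuR-KO library. Nebl lay near the filter of a mean of 10. It had 1.95 normalized counts in control 3-8 and 18.4 in control 3-12, against 15.6 in muHuR-KO 1-9 and 15.6 in muHuR-KO 3-9. Its difference from control 3-8 thus rests on a few reads in 1 library. Against control 3-12 the log2 fold changes were -0.51 for Neb, -0.23 for Nebl and -0.66 for Xirp2. Of 20 Z-disc partners of actinin only Nexn, nexilin, passed (1.33, adjusted p = 0.0126 from limma), and of 13 measured subunits of the actin chaperonin and prefoldin only Vbp1 (0.88, adjusted p = 0.0430 from limma). Among 10 regulators of muscle actin genes Mef2a (1.42, adjusted p = 0.00852 from limma) and Mef2c (1.05, adjusted p = 0.0250 from limma) were called as higher against control 3-8, whereas Srf, serum response factor, was at 3305 and 2785 normalized counts in the controls and 2521 and 2589 in muHuR-KO (-0.37 against control 3-8, adjusted p = 0.321 from limma). Against control 3-12 the log2 fold changes of Nexn, Vbp1, Mef2a and Mef2c were also negative (-0.45, -0.04, -0.52 and -0.34), and none passed. Counts of 1 of 20 and 1 of 13 lie near or below the share of all tested genes. None of the 6 other actins and actinins was called, with a median log2 fold change of -0.12 against both controls. After a loess correction for GC content, none of Neb, Nebl, Xirp2, Nexn, Vbp1, Mef2a and Mef2c passed (adjusted p = 0.0572 to 0.634 from limma), with Neb still at 1.33, while Myh1 did (adjusted p = 0.0153 from limma). That correction called other genes of these lists as lower against control 3-8, namely Cfl2 (-1.23), Myoz2 (-1.44), Pdlim1 (-1.12), Tcp1 (-0.92), Cct7 (-0.92) and Pfdn4 (-1.18), with adjusted p-values of 0.0192 to 0.0420 from limma. The shares of all tested genes given above belong to the fit without that correction. With it, more genes of the whole table were called as lower. Without the filter or the trend none of the listed genes passed. No gene of these lists was called against both controls or against control 3-12.

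By pattern over the 4 libraries, the genes nearest to each of the 8 were sought among 3353 genes with a mean of at least 1000, as the Euclidean distance between log2 values centred on each gene's own mean. Acta1 was nearest to Ip6k3 (distance 0.0095), an inositol hexakisphosphate kinase abundant in muscle, and to Atp6v0e2 (0.038). Tpm1 was nearest to Cox7a2 (0.031) and Tspan13 (0.035), Tpm3 to Rpl10 (0.025) and Prcc (0.039), and Actn2 to Gtpbp1 (0.050) and Eef1g (0.051). Tpm2 was nearest to Ndufv3 (0.068) and Capzb (0.081), the beta subunit of the protein that caps actin filaments, and Tpm4 to Hypk (0.053) and Fabp4 (0.075). Actn3 (Irf2bp2 at 0.15 and Cdkn1a at 0.26) and Actc1 (Apol6 at 0.25 and Vimp at 0.29) had no gene as near. With 4 libraries such likeness is a description alone.

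AU-rich words were counted after the stop codon of the transcript with the longest coding sequence, because HuR binds such stretches. ATTTA occurred 5 times in Tpm1, 2 times in Tpm3 and in Tpm4, 1 time in Actc1, and not in Tpm2, Acta1, Actn2 or Actn3. The longer word TATTTAT occurred once in Tpm4 and once in Actc1. The 184 bases after the Actc1 stop codon are few, and of 634 tested genes whose length there was within 20% of it, 26.0% held ATTTA and 5.36% held TATTTAT. For Tpm4, with 1318 bases, the shares among genes of like length were 80.6% and 30.2%. The words describe the annotated transcript, and which transcript ends were used in the soleus was not measured.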

How the data were processed

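The authors sequenced 100-nt paired ends on a NextSeq instrument. They mapped the reads with TopHat2 2.0.10 to mm10 (GRCm38), obtained gene counts from HTSeq 0.6.1 and deposited the signal as counts normalized by DESeq2 size factors. The annotation, the strand setting and the version of DESeq2 are not given in the sources used here. The deposited fold changes and p-values are the authors' own comparison and were not used. Whole reads were recovered for 100% of values to within 0.01 reads. Totals were 25767295 (control 3-8), 13301715 (control 3-12), 30362871 (muHuR-KO 1-9) and 33348893 (muHuR-KO 3-9) reads. Chi-square over its degrees of freedom came to 157 for the control pair and 69.1 for the muHuR-KO pair, so neither pair is a duplicate.

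Groups came from the Cre label. limma 3.58.1 (R 4.3.3) was fitted with a trend to log2 of the normalized count plus 1 for genes with a mean of at least 10. The fit against both controls had 2 residual degrees of freedom and that with each control as a group of its own 1. Significance was an adjusted p (Benjamini-Hochberg) under 0.05. Alternatives were pseudocounts of 0.5 and 5, no filter, a mean of at least 50, TMM factors, CPM, DESeq2 1.42.0 and edgeR 4.0.16 run on whole reads with the authors' size factors, no trend, loess on GC content or exon length (span 0.4), and each library left out. Fits were also run on simulated counts, whose spread was set and not estimated from these libraries, and no result here rests on them. The genes and lists were chosen with earlier results of these data known. Named were the 8 genes, up to 4 genes of smallest p from a list, genes past the adjusted threshold, and the 2 nearest genes by pattern, of which those that bear on the text are given. Coordinates are from GENCODE M21, for 13180 of the 13287 tested genes. Python 3.11.15 and matplotlib 3.10.9 were used for tables and plots. A stretch of the actin coding sequences is not reported here.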

Additional observations from a re-analysis of the deposited data

How the results depend on the processing

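Against both controls, 0 of the 8 genes were called, and 0 to 1 when each library was left out in turn, the 1 being Actc1 without control 3-12, which is the contrast with control 3-8 alone (log2 fold change -0.89, adjusted p = 0.0465 from limma). Against control 3-8, Actc1 was the 1 gene called. No gene of the 8 was called without the filter on low counts (0), with CPM (0), DESeq2 (0), no trend (0), GC loess (0) or length loess (0), where the log2 fold change of Actc1 was -0.89, -0.76, -0.89, -0.89, -0.74 and -0.69, and the cause was not tested. Against control 3-12, no alternative called any of the 8. Over all genes, limma called 0 against both controls, and 0 to 1266 with a library left out, the highest without control 3-12 and 2 without control 3-8. Against control 3-8 it called 1304, but 0 without the filter, 0 without the trend, 379 with GC loess and 1 with length loess. Against control 3-12 the 0 calls became 4 with TMM factors, 1 with edgeR, 9 with DESeq2 and 18 with GC loess, and 0 to 2 with a control left out. The count of all genes called against control 3-8 stayed of the same order in every other alternative with a test, edgeR and DESeq2 among them. With length loess both muHuR-KO libraries were below both controls in 2 of the 8 genes (Tpm2 and Actc1), an alternative added after the data were seen, as were the other scalings of this count of the 8 genes.

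The direction against both controls depended on single libraries, except for Tpm2 and Actc1, which were negative in all 15 alternatives. With each library left out, the log2 fold change ran from -0.28 to 0.044 for Tpm1, from -0.37 to 0.23 for Tpm3, from -0.12 to 0.35 for Tpm4, from -0.62 to 0.33 for Acta1, from -0.62 to 0.063 for Actn2 and from -0.41 to 0.92 for Actn3, the positive end without control 3-8 for all but Tpm4, and none of these values passed the threshold. Tpm3 also turned with CPM (0.034), and Tpm4 turned with GC loess against control 3-8 (-0.076) and with length loess against control 3-12 (-0.024). The within-library ratios of Tpm3, Actn3 and Actc1 kept their sign with reads per kilobase of exon and without each library, but their size moved by over 1.5 times. The Tpm3 difference of 2.20 percentage points ran from 0.631 (without muHuR-KO 3-9) to 3.78 (without muHuR-KO 1-9), and was 0.662 without control 3-12 and 3.74 without control 3-8. The Actn3 difference of 0.00972 ran from 0.00414 (without muHuR-KO 1-9) to 0.0153 (without muHuR-KO 3-9), and was 0.00470 without control 3-12 and 0.0147 without control 3-8. The Actc1 difference of -0.000364 ran from -0.000607 (without control 3-8) to -0.000122 (without control 3-12). Leaving out a muHuR-KO library in the comparisons with a single control left no residual degrees of freedom and gave values with no test. No paired analysis was possible because no mouse number is shared between the groups. Controls 3-8 and 3-12 and muHuR-KO 3-9 share the leading 3, whose meaning the labels do not give. With 2 libraries a group, no exact permutation test can reach 0.05.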
